A study of Mus musculus with 11 samples.

Results

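The methylation of 6 genome windows that hold genes of myeloid transcription factors was described in ER-Hoxa9-Lys-GFP cells, cultured mouse cells of strain C57BL/6. The windows were set by position on the mm9 build, and no measured value entered the rule. Earlier results of these data were known when they were chosen. They are Spi1 at chr2:90915000-90960000, Cebpa at chr7:35895000-35945000, Gfi1 at chr5:108140000-108170000, Runx1 at chr16:92595000-92835000, Irf8 at chr8:123255000-123345000 and Cebpe at chr14:55320000-55345000. The Spi1 and Cebpa windows were drawn wide enough to take in an enhancer outside each gene. Together they hold 180 of the 358133 tiles of 500 bp in the series (0.0503%) and 788 of its 1481716 listed CpGs. Of these 180 tiles, 59 could be described, which means that at least 3 CpGs had a read in all 11 libraries and that each group had at least 20 observations. An observation is 1 read over 1 CpG. The described tiles number 21 at Runx1, 18 at Irf8, 9 at Cebpa, 6 at Gfi1, 4 at Spi1 and 1 at Cebpe.

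The cells carry a conditional Hoxa9, a fusion with a part of the estrogen receptor that makes the factor depend on estradiol, and a fluorescent reporter of the lysozyme gene. Reduced representation bisulfite sequencing (RRBS), which reads cytosine methylation in a CpG-rich fraction of the genome, was done on all 11 libraries. One library came from cells kept in estradiol throughout. In 4 groups estradiol was absent for 24, 40, 56 or 72 h and then given back for 96, 80, 64 or 48 h, and in the last group it was absent for 120 h and never given back. Each of these 5 groups has 2 libraries. The hours of absence and of return add up to the same total in the 4 returned groups, so that the effects of one and of the other cannot be told apart. The labels give a single line of cells and do not say that replicates were separate cultures, and p-values therefore measure only the spread between these libraries, which may be technical. DNA methylation gives no expression values, and the state of the cells could not be checked against marker genes.

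The 6 genes encode factors that direct blood cell formation. Runx1 is needed for the first blood stem cells and acts with Spi1 (PU.1) and Cebpa (C/EBP alpha) in the commitment of progenitors to the granulocyte and monocyte lineages. Gfi1, a repressor, and Cebpe (C/EBP epsilon) act in granulocyte maturation, and Irf8 favours monocytes and dendritic cells. Promoters rich in CpG are usually unmethylated whether or not the gene is active, while enhancers tend to lose methylation in the cells that use them.

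The promoter sequences of 4 members are shown because they carry the low methylation described next and let the CpGs that were read be seen in place. They are RefSeq sequences of build GRCm38.p6, from 250 bases before to 50 bases after the annotated start, written 5′ to 3′ on the strand of the gene. Each was placed on mm9 by matching the spacing of its CpGs to the positions listed in the deposited files. Capitals mark the CpGs that are listed there. Cebpa lies at chr7:35904062-35904361 on the plus strand, Gfi1 (its second annotated start) at chr5:108153314-108153613 on the minus strand, Runx1 (its second start, the proximal one) at chr16:92697525-92697824 on the minus strand and Irf8 (its first start) at chr8:123260008-123260307 on the plus strand.
Cebpa: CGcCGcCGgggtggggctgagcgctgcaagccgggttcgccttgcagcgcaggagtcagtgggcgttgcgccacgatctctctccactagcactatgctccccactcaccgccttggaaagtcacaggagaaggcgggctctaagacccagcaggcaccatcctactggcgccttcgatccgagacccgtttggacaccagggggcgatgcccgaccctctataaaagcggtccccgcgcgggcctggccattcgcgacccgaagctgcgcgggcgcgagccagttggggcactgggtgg
Gfi1: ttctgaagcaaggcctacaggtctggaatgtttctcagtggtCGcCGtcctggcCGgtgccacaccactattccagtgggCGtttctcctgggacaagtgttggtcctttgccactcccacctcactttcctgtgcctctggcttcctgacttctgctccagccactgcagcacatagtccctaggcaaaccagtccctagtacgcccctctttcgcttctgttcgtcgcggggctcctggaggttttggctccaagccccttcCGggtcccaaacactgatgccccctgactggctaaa
Runx1: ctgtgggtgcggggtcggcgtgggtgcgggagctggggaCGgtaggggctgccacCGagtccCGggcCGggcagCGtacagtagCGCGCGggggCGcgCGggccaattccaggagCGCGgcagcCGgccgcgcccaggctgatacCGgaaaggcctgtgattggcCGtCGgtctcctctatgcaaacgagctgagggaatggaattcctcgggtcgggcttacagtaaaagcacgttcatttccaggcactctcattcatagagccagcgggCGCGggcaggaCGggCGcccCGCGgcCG
Irf8: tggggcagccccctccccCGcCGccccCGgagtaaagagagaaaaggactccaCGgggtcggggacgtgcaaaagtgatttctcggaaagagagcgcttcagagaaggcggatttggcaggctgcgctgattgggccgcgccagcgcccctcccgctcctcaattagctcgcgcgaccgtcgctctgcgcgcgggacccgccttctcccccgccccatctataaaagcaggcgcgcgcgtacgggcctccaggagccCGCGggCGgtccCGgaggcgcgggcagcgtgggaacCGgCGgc
The listed CpGs number 3 of 29 for Cebpa, 5 of 10 for Gfi1, 23 of 35 for Runx1 and 10 of 38 for Irf8. The 3 CpGs of Cebpa lie at the far upstream end of the sequence and were placed with a relaxed minimum of 3 matching CpGs, in place of 5.

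These promoter CpGs were almost free of methylation. Over all 11 libraries, 1 of 288 observations was methylated at Cebpa (0.347%), 6 of 1128 at Gfi1 (0.532%), 5 of 2326 at Runx1 (0.215%) and 1 of 834 at Irf8 (0.12%). The highest value of any single library was 1.64% at Cebpa, 3.39% at Gfi1, 1.15% at Runx1 and 0.826% at Irf8. Spi1 and Cebpe were not placed, nor were the first starts of Gfi1 and Runx1 and the second start of Irf8.

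The CCGG of the enzyme commonly used in RRBS and other short motifs were searched on both strands of these 4 sequences. CCGG occurs 2 times in Cebpa, 2 in Gfi1, 4 in Runx1 and 3 in Irf8, and 52.8% of 32851 RefSeq promoters of that length hold it. The letters TATAAA occur once in Cebpa, 30 bases before the start, and once in Irf8, 31 bases before it, against 13.6% of all promoters. GAGGAAGT (found in 3.20% of all promoters), TTNCNNAA (40.7%) and TGTGGT (16.8%) do not occur in the 4 sequences.

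Among the described tiles, the share of low ones was larger at the 6 loci than over the genome, a difference given here without a test. With low methylation defined as a mean of the 6 group values under 20%, high as 80% or more and partly methylated in between, the loci had 24 low tiles (40.7%), 9 partly methylated ones (15.3%) and 26 high ones (44.1%). Of all 107199 described tiles of the genome, 20.4% were low, 12.9% partly methylated and 66.7% high. Cebpa and Gfi1 were mostly low, with 7 of 9 and 4 of 6 tiles. Runx1 was mostly high, with 14 of 21 tiles, and Irf8 had 6 low, 5 partly methylated and 7 high ones. The other 121 tiles of the windows had too few CpGs or reads. Of the 119 among them with at least 20 observations over all libraries, 20 were low, 19 partly methylated and 80 high, and 91 of the 121 held only 1 or 2 CpGs.

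**Figure D1:**
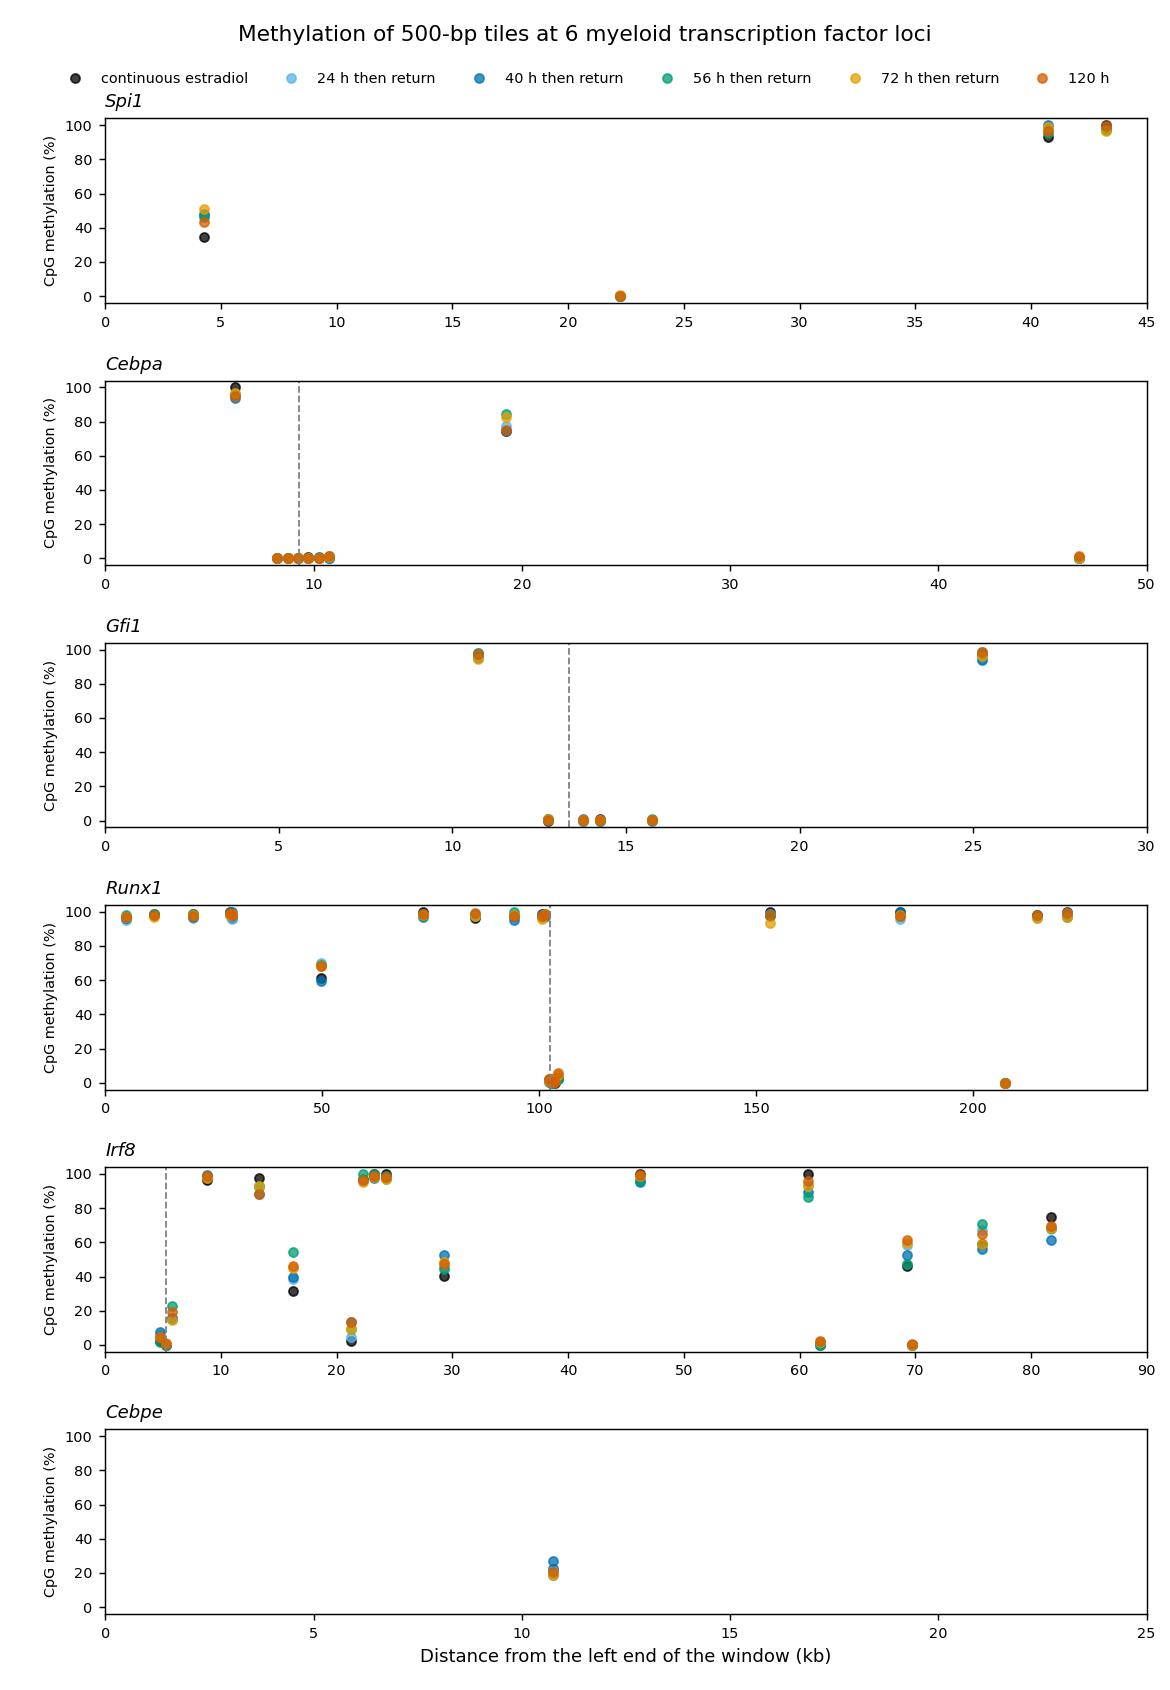
Methylation (vertical axis, %) of the described 500-bp tiles of the 6 loci against distance from the left end of each window (horizontal axis, kb), 1 point per group with reads pooled over its libraries; dashed lines mark placed starts. Most tiles lie near 0 or near 100% in all 6 groups, and the intermediate tiles are mostly those of Irf8.

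Spi1 encodes PU.1, an ETS factor needed for myeloid and B cells. Its window held an unmethylated tile at chr2:90937001-90937500, with 2 of 1170 observations methylated over the 11 libraries (0.171%), and no library above 0.714%. A further tile 12.5 kb to its left, chr2:90924501-90925000, had 2 of 384 (0.521%). That tile was not read in every library at 3 CpGs and so is not among the 59. The tile 18 kb to the left, chr2:90919001-90919500, was partly methylated. There the library in continuous estradiol had 34.6% (95% Wilson interval 26.2 to 44.2%, which covers counting error only), and the 24 h libraries had 50.9 and 46.1%, the 40 h ones 50 and 45.8%, the 56 h ones 43.1 and 50%, the 72 h ones 52.2 and 49.7% and the 120 h ones 44.0 and 41.8%. The library in continuous estradiol was the lowest of the 11. This was the case at 1 of the 9 partly methylated tiles of the loci and at 10.3% of the 13832 in the genome. Under a minimum of 1 read per CpG and 30 observations per tile, which let this tile be tested, 120 h without estradiol was 8.24 points above continuous estradiol with a half-width of the 95% interval of 13.1 points, and the adjusted p was 0.913 (quasi-binomial test). The 2 remaining described tiles of the window had 97.0 and 97.9%.

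Cebpa encodes C/EBP alpha, which granulocyte and monocyte progenitors need to form. An unmethylated stretch spanned its start: 6 neighbouring tiles from 1.06 kb before to 1.44 kb after it had group means of 0 to 0.647%. The tile at chr7:35903001-35903500 had 0 of 503 observations methylated, which allows a share of up to 0.596% (3 counts of the total, for counting error only, with reads over neighbouring CpGs taken as independent; the upper end of the exact 95% interval is 0.731%). A separate unmethylated tile lay 37.4 kb downstream, at chr7:35941501-35942000, the distance at which an enhancer active in myeloid progenitors is known. It had 2 of 480 observations methylated (0.417%), both in 120 h replicate 1 (2.74%), and all other libraries were at 0. Between the start and that tile, chr7:35914001-35914500 was partly methylated at 9.94 kb. Its value was 74.5% in continuous estradiol. The 24 h libraries had 75.4 and 77.9%, the 40 h libraries 87.5 and 67.7%, the 56 h libraries 79.3 and 91.3%, the 72 h libraries 83.6 and 81.7% and the 120 h libraries 69.6 and 83.3%. Replicates of the 40 h, 56 h and 120 h groups differed by more than most groups did, so no order of the groups could be read. Upstream, the tile 3.06 kb before the start was at 96.2%.

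Gfi1 encodes a zinc finger repressor that acts in granulocyte maturation. Its 4 low tiles, from 2.39 kb before to 0.61 kb after the placed start, had means of 0.266 to 0.535%, and no library exceeded 1.58% in them. Both of the other tiles were high, 96.6% at 2.61 kb after the start and 96.3% at 11.9 kb before it. None of these 6 described tiles was partly methylated, and 5 of the 11 tiles of the window were not described. The tile that holds the placed start, chr5:108153001-108153500, is among those not described. It had 7 of 799 observations methylated (0.876%), with up to 6.25% in a single library, on 22 to 168 observations each.

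Runx1 encodes the DNA-binding subunit of core binding factor and is transcribed from a distal and a proximal promoter. The 5 tiles around the proximal start, from 0.32 kb after to 1.68 kb before it, had means of 0.443 to 3.31%. Inside the gene, the tile 1.32 kb after the start was already at 97.8%. Far upstream of the proximal start, 104.68 kb away, the tile chr16:92802001-92802500 was unmethylated: 0 of 952 observations over the 11 libraries, which by the same count allows a share of up to 0.315% (exact upper end 0.387%). Its described neighbours on either side, 80.7 and 112.18 kb from the start, were at 98.2 and 97.4%. The 14 high tiles of the window had means of 96.8 to 98.9%. One Runx1 tile, chr16:92644501-92645000 at 52.8 kb after the start, was partly methylated. It had 61.0% in continuous estradiol, 67.3 and 70.4% (24 h), 57.5 and 61.8% (40 h), 68.1 and 70.8% (56 h), 64.8 and 72.7% (72 h) and 71.1 and 65.0% (120 h). Continuous estradiol and the 40 h libraries were the lowest, and the ranges of the other groups overlapped.

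Irf8 encodes an interferon regulatory factor of the monocyte and dendritic lineages, and its window had the most partly methylated tiles, 5 of 18 (27.8%, against 12.9% in the genome). At the start itself the tile chr8:123260001-123260500 had a mean of 0.301%, while the tile just downstream, at 0.49 kb, had 17.1%. Unmethylated tiles also lay 56.5 kb after the start (chr8:123316501-123317000, 9 of 695 observations, 1.29%) and 64.5 kb after it (chr8:123324501-123325000, 2 of 787, 0.254%). These 2 tiles lie between highly or partly methylated ones, at 93.1% one kilobase before the former and at 54.3% directly before the latter.

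Cebpe encodes C/EBP epsilon, a factor of late granulocyte maturation, and only 1 of the 8 tiles of its window could be described. That tile, chr14:55330501-55331000, had 22.2% in continuous estradiol, 27.5 and 19.1% (24 h), 28.4 and 26.2% (40 h), 27.6 and 8.86% (56 h), 16.1 and 21.5% (72 h) and 16.7 and 26.0% (120 h). The 56 h replicates were the most different from each other, and every other group except that at 40 h lay within their span.

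**Figure D2:**
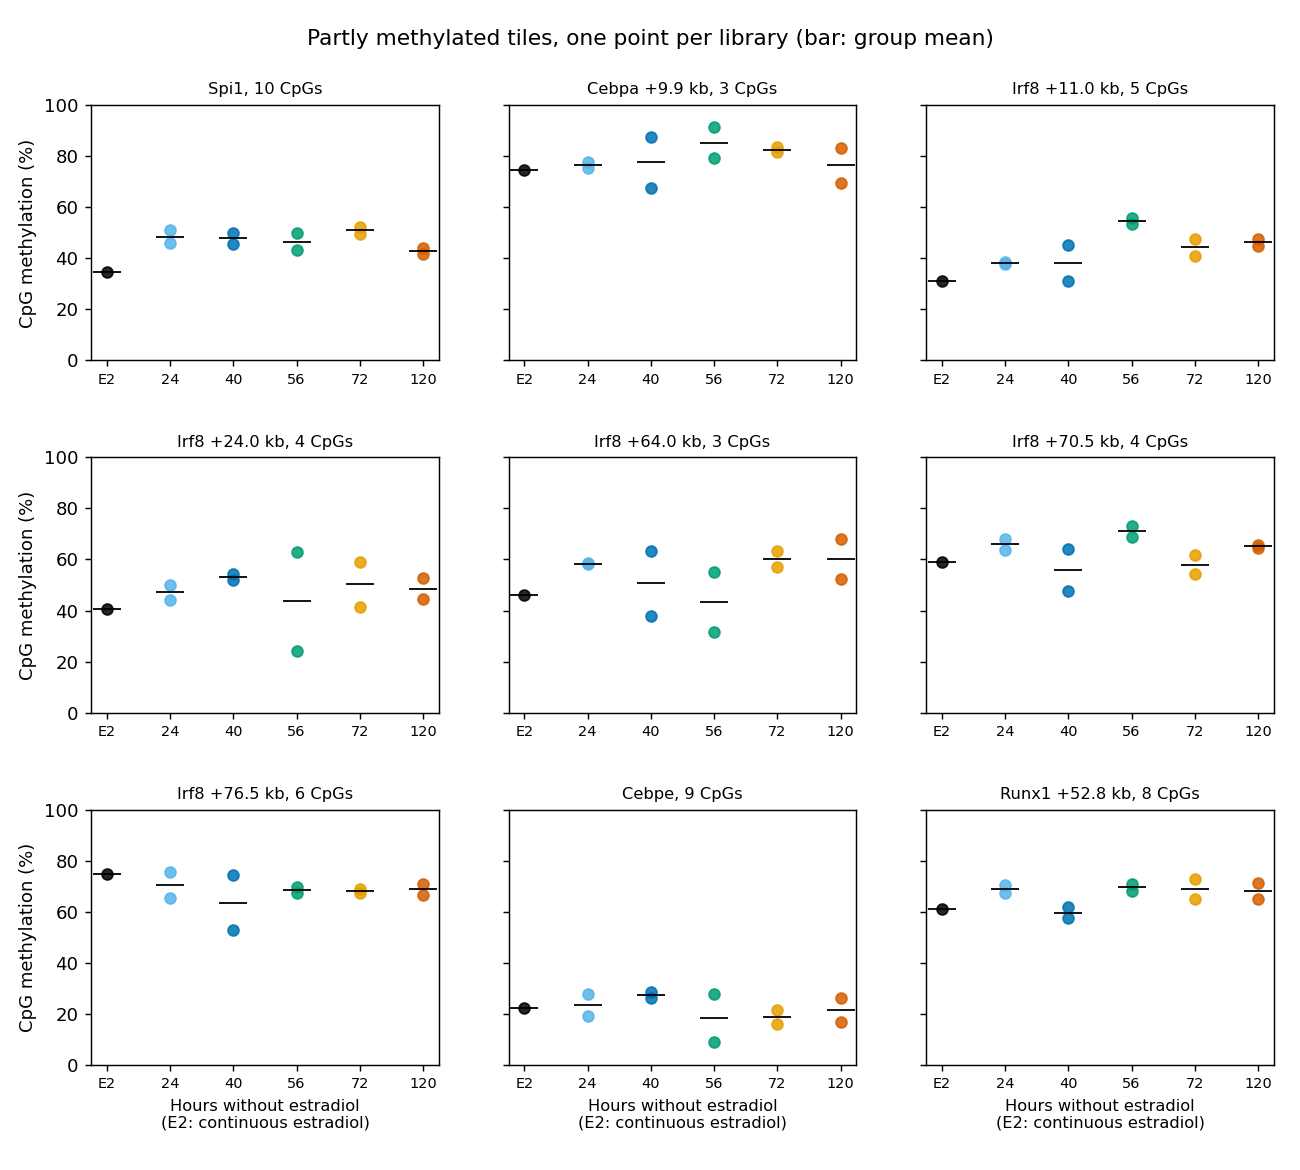
Methylation (vertical axis, %) of the 9 partly methylated tiles in each of the 11 libraries, 1 panel per tile, with the libraries by hours without estradiol (horizontal axis); bars are group means and distances in the titles are from the placed start. Replicates differ by about as much as groups in most panels, and the Irf8 panel nearest to the start has its lowest values, near 31%, in continuous estradiol and in 1 of the 40 h libraries.

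At 5 of the 9 partly methylated tiles, single CpGs stepped from a high or middle level to a low one within the tile. At the Irf8 tile chr8:123271001-123271500, 11 kb after the start, the CpGs at 123271064 and 123271224 were at 96.3 and 82.2% over all libraries, and those at 123271317, 123271324 and 123271404 at 17.0, 29.6 and 16.3%. The step from 82.2 to 17.0% was taken within 93 bp. The Irf8 tile at 24.0 kb (chr8:123284001-123284500) went from 82.3 to 7.98% within 157 bp. The Irf8 tile at 64.0 kb (chr8:123324001-123324500) went from 87.5 to 0.333% within 54 bp, at the border of the unmethylated tile that follows it. At Cebpe, the first 2 CpGs were at 58.1 and 76.0% and the next 7 at 4.79 to 17.3%, with 146 bp between the one side and the other. At the Runx1 tile, 5 CpGs at 95.2 to 98.7% were followed by 2 at 60.3 and 60.5% and, 66 bp on, by 1 at 13.3%.

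At the other tiles no CpG was under 20% over all libraries. The CpGs of the Spi1 tile ranged from 22.5 to 68.2% and those of the Cebpa tile from 68.2 to 96.1%. Those of the Irf8 tile at 70.5 kb (chr8:123330501-123331000) ranged from 57.1 to 76.8%. The Irf8 tile at 76.5 kb (chr8:123336501-123337000) had a wide spread, from 29.7 to 96.6%, and fell from 87.1 to 47.2% within 21 bp. A partly methylated tile held both a CpG under 20% and one at 80% or more in 4 of 9 cases at the loci (44.4%) and in 25.1% of 13832 cases in the genome. With 9 tiles this is a description.

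No tile of the 6 loci passed an adjusted p of 0.05 in any of the 5 comparisons made across the genome, each with a quasi-binomial test of methylated against unmethylated reads and Benjamini-Hochberg adjustment over all tiles tested. For 120 h without estradiol against 24 h and return, 40 tiles of the loci were tested and 0 called, where 0.0785% of 71323 tiles in the genome were called, 28 higher and 28 lower. Of the 40, 3 (7.5%) had an unadjusted p under 0.05, beside 3689 of the 71323 (5.17%), in the quasi-binomial test. With limma 5 of the 40 were under 0.05 and 0 were called. The shares over the genome here and below are those of the quasi-binomial test, so the limma counts cannot be set against them. The share with limma over the genome is not given here, so these counts show neither an excess nor a lack. Of the 40, 25 were higher and 15 lower at 120 h, and the median difference was 0.267 points against -0.0415 over all tiles tested. The smallest adjusted p of the 40 (quasi-binomial test) was 0.743. The libraries of the 2 groups did not overlap at 12 of the 40 tiles, beside 32.3% of all tiles tested. None of the 40 differed by 10 points or more, beside 1.51% of all tiles tested.

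The other comparisons gave the same count. For 72 h against 24 h, both returned, 35 tiles of the loci were tested and 0 called (0.0401% of 67407 in the genome), and 0 had an unadjusted p under 0.05, beside 3370 in the genome (1 with limma, which called 0). Their smallest adjusted p was 0.943 (quasi-binomial test). Groups did not overlap at 14 of 35, beside 31.3% of all tiles, and 0 differed by 10 points or more, beside 1.59%. For 120 h against 72 h and return, 45 were tested and 0 called, as in the genome (0% of 92383 called and 3962 at an unadjusted p under 0.05); 2 of the 45 had an unadjusted p under 0.05 (3 with limma, which called 0), and groups did not overlap at 12 of 45, beside 32% of all tiles. None of the 45 differed by 10 points or more, beside 1.36%. For 120 h against continuous estradiol, 29 were tested and 0 called (0% of 51370 called and 789 at an unadjusted p under 0.05); 1 of the 29 had an unadjusted p under 0.05 (2 with limma, which called 0), and 2 differed by 10 points or more, beside 4.38% of all tiles. Along the hours of absence over the 8 returned libraries, 20 tiles were tested and 0 called (0.0221% of 45255 in the genome), and 2 of the 20 (10%) had an unadjusted p under 0.05, beside 6.37% of all tiles tested, as also with limma, which called 0.

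These comparisons share libraries and are not independent of each other. Half-widths of differences were built from reads pooled by group, while the differences are those of mean library values. An interval can therefore exclude 0 where the test gives no low p. At chr16:92624001-92624500, 120 h differed from 24 h by 4.03 points with a half-width of 3.91 and an unadjusted p of 0.208 (quasi-binomial test). The intervals also make no allowance for picking the largest differences. At partly methylated tiles of the loci, the 95% interval of a difference reached 9.91 points to either side at the median for 120 h against 24 h (6.67 to 13.3 over 8 tiles), 10.7 for 72 h against 24 h, 11.1 for 120 h against 72 h and 22.8 for 120 h against continuous estradiol, where 1 side is 1 library.

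**Figure D3:**
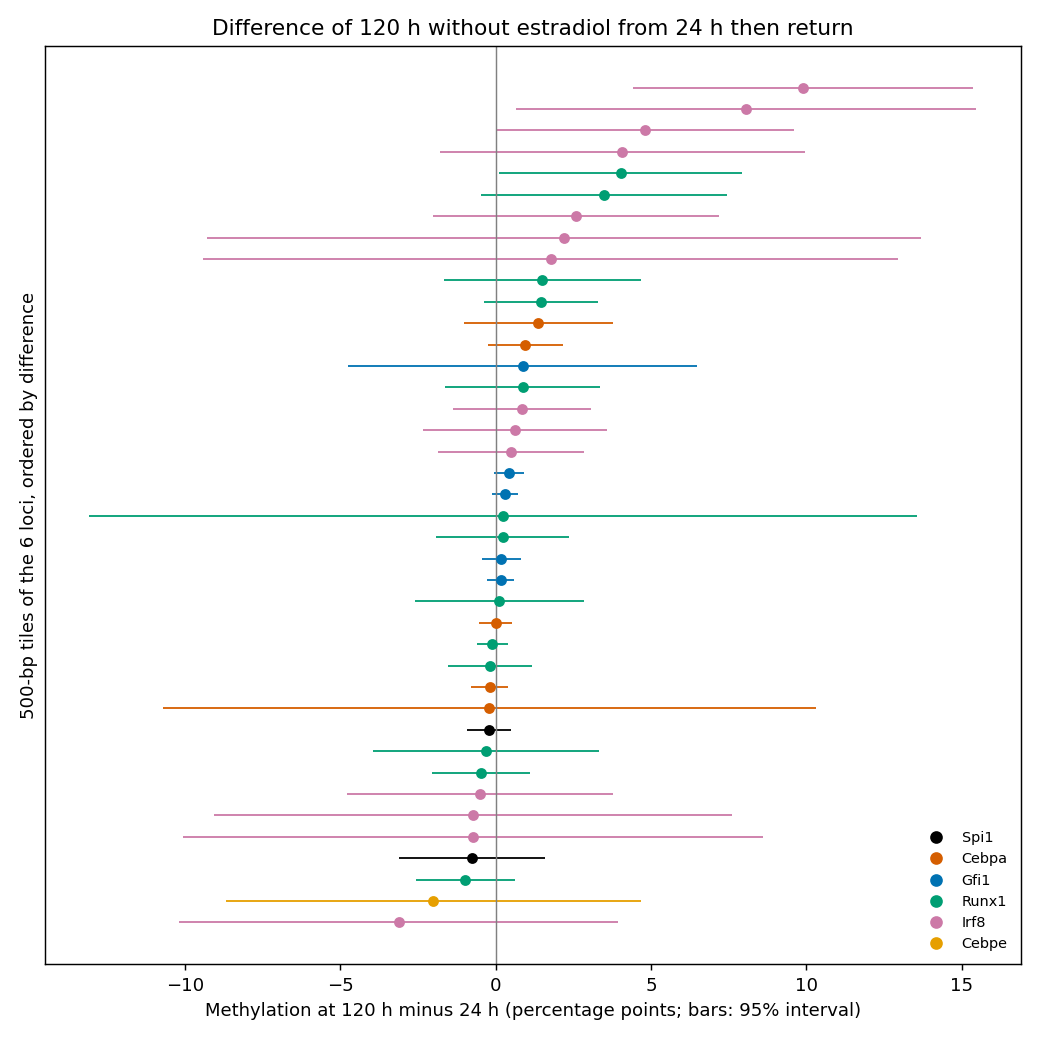
Difference in methylation of 120 h without estradiol from 24 h and return (horizontal axis, percentage points) at the 40 tested tiles of the 6 loci, ordered by difference and coloured by locus. Bars are approximate 95% intervals built from reads pooled by group, and a bar that excludes 0 need not go with a low p in the test. Most points lie within 5 points of 0, and the 2 highest, at 9.89 and 8.06 points, are Irf8 tiles.

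Among the 40 tiles tested with 10 reads per CpG, the 2 largest differences of 120 h from 24 h were both in the Irf8 window. The first was at chr8:123276001-123276500, 16 kb after the start, a tile of 4 CpGs with 973 observations in all. It had 2.56% in continuous estradiol, 3.12 and 4.76% (24 h), 14.9 and 11.1% (40 h), 3.33 and 16% (56 h), 6.42 and 12.9% (72 h) and 10.2 and 17.5% (120 h). Both 120 h libraries were above both 24 h libraries and above continuous estradiol, but the 56 h replicates spanned nearly the whole range. The difference of 120 h from 24 h was 9.89 points with a 95% half-width of 5.48 points. Its adjusted p of 0.743 (quasi-binomial test with Benjamini-Hochberg adjustment) missed the threshold, and it was 0.267 with the dispersion taken from the Pearson chi-square.

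The second was the Irf8 tile at 11 kb, chr8:123271001-123271500. It had 31.2% in continuous estradiol (Wilson interval 23.4 to 40.3%), 37.8 and 38.6% (24 h), 31.1 and 45.2% (40 h), 55.9 and 53.3% (56 h), 47.7 and 41.1% (72 h) and 44.8 and 47.7% (120 h). The 56 h libraries were the highest, and both 120 h libraries lay above both 24 h libraries. The difference of 120 h from 24 h was 8.06 points with a half-width of 7.40 and an adjusted p of 0.935, and that from continuous estradiol, over the 4 CpGs deep enough there, was 15.4 points with a half-width of 13.4 and an adjusted p of 0.907 (quasi-binomial test). Over the 8 returned libraries the slope was 7.47 points per 24 h of absence, with an adjusted p of 0.768 in the same test. It too was taken over only 4 CpGs, with means of 27.7% at 24 h and 37.2% at 72 h, and so is not the slope of the library values above. Among its CpGs, chosen here after their values were seen, the one at 123271324 was methylated in 15.4% of 26 observations in continuous estradiol. It had 14.5% of 83 in the 24 h group, 21.7% of 23 in the 40 h group, 47.6% of 21 in the 56 h group, 30.1% of 73 in the 72 h group and 42.6% of 108 in the 120 h group. The next CpG to the left, 7 bp away, ranged only from 5.26 to 20.3% over the same groups.

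A further Irf8 tile, chr8:123274501-123275000 at 14.5 kb after the start, was too thinly read for the 10-read minimum and is not among the 59. With 1 read per CpG and 30 observations per tile, 57 tiles of the loci could be tested for 120 h against 24 h, and this one had the largest difference. Over its 5 CpGs the library in continuous estradiol had 44.4% of 27 observations. The 24 h libraries had 50 and 42.5%, the 40 h libraries 45.5 and 55.6%, the 56 h libraries 45.5 and 82.8%, the 72 h libraries 69.4 and 55.2% and the 120 h libraries 62.3 and 71.4%, on 22 to 113 observations each. Both 120 h libraries and both 72 h libraries were above both 24 h libraries, while the 56 h replicates were far apart. The difference of 120 h from 24 h was 20.6 points with a half-width of 13.02 and an adjusted p of 0.624, and that of 72 h from 24 h was 16.05 points with a half-width of 14.4 and an adjusted p of 0.947 (quasi-binomial test). Neither passed the threshold.

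At the remaining loci, with 10 reads per CpG, the largest differences of 120 h from 24 h were 4.03 points at Runx1 (chr16:92624001-92624500), -2.01 at Cebpe, 1.37 at the Cebpa tile 37.4 kb downstream, 0.871 at Gfi1 (chr5:108150501-108151000) and -0.769 at Spi1 (chr2:90924501-90925000), none called. With 1 read per CpG and 30 observations per tile the largest were -5.66 points at Spi1 (chr2:90919001-90919500) and 4.79 at Gfi1 (chr5:108165001-108165500), with adjusted p of 0.963 and 0.957 (quasi-binomial test), and the Gfi1 tile chr5:108150501-108151000 turned to -0.736 over 23 CpGs. For 72 h against 24 h, with 10 reads per CpG, the largest were -9.88 points at the Runx1 tile 52.8 kb after the start, -7.86 at the Irf8 tile 70.5 kb after it, 6.00 at the Cebpa tile 9.94 kb after it, -4.55 at Cebpe, -1.19 at Gfi1 and 0.153 at Spi1, with adjusted p of 0.943 or more in the quasi-binomial test. The Runx1 value rested on 3 CpGs and on single libraries: it was -2.17 without 24 h replicate 1, 4.29 without 72 h replicate 1 and -24.1 without 72 h replicate 2. Over all 8 CpGs of that tile it was -0.0607 points (68.8% in both groups).

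Summed over all CpGs read in the 11 libraries, the windows differed in level. Mean methylation over the 11 libraries was 60.0% ± 1.84 (SD) at Runx1, 58.2% ± 2.45 at Irf8, 47.8% ± 6.16 at Spi1, 26.1% ± 3.95 at Cebpe, 23.4% ± 1.62 at Cebpa and 17.1% ± 3.49 at Gfi1. Between neighbours in this order the ranges over the 11 libraries overlapped, except between Spi1 and Cebpe. The value of a window depends on which of its CpGs are used: with at least 5 reads per CpG in all libraries it was 54.7% at Runx1, 44.9% at Irf8, 42.1% at Spi1, 12.5% at Cebpe, 22.9% at Cebpa and 6.86% at Gfi1, so that Cebpe then lay below Cebpa. At Runx1 the 24 h libraries had 57.5 and 57.8% and the 120 h ones 59.5 and 58.5%, with 62.9% in continuous estradiol. Each library weighs its CpGs by its own reads, so its value also depends on where those reads fell. The Gfi1 window ranged from 11.3 to 23.3% over the libraries. Its described tiles all had means of 0.266 to 0.535% or of 96.3 to 96.6%. How much of the spread between libraries comes from read placement was not tested. No test was made on these means, since 2 libraries against 2 cannot give an exact permutation p below 0.333.

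**Figure D4:**
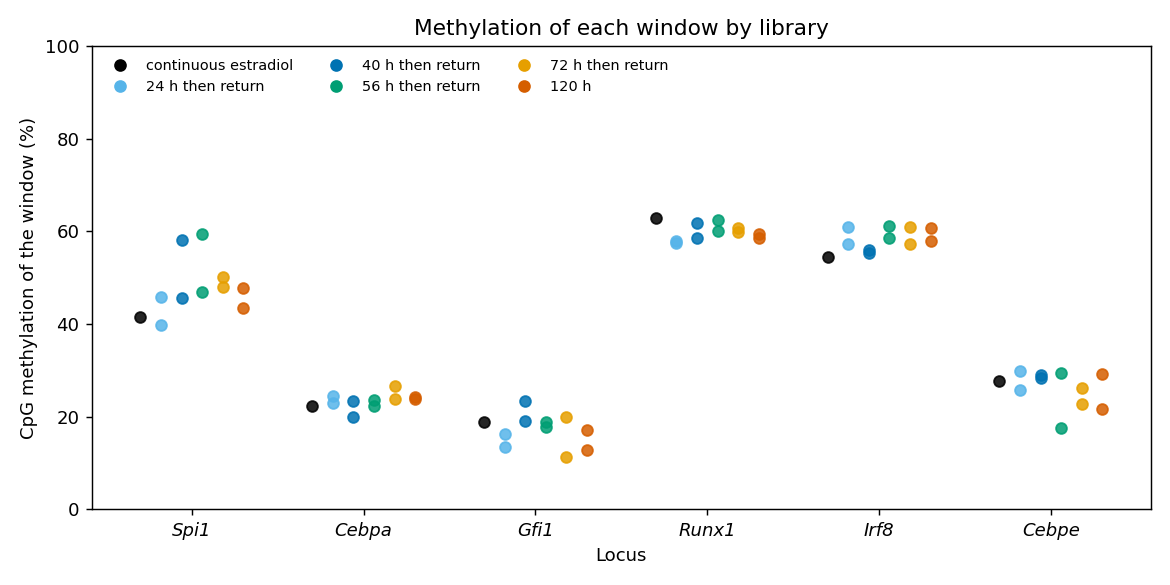
Methylation of each window (vertical axis, %; reads summed over CpGs read in all libraries), 1 point per library, by locus (horizontal axis) and group (colour). The spread is widest at Spi1, from 39.7 to 59.4%, and at Runx1 the 24 h libraries are the lowest and continuous estradiol the highest. Each library weighs CpGs by its own reads, so spread and order also depend on where those reads fell.

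The partly methylated tiles of the loci varied about as much as such tiles elsewhere. The median range over the 6 groups was 13.5 points at the loci and 14.2 in the genome, and the median SD between replicates was 7.35 and 6.79 points. Highly methylated tiles of the loci had a median range over groups of 3.38 points, against 5.56 in the genome, and low ones 1.11 against 1.06.

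Promoters of other factors of blood cell formation were placed by the same matching of CpG spacing, with at least 8 CpGs. Of 43 genes listed, 33 were in the promoter table and 17 could be placed, with 21 promoters. Of these, 19 had under 5% of their observations methylated, with a median of 0.315% over the 21, a level near that of the 4 promoters shown above. The minimum of 8 CpGs left out promoters with few listed CpGs. The 21 therefore stand only for CpG-rich promoters, which are usually unmethylated, and not for all 43 genes. The exceptions, named after their values were seen, were Gata3, a factor of T cells, with 5.32%, and the second start of Bcl6, a repressor of germinal centre B cells, with 97.4%. Gata3 lay just over the limit, and its single libraries ranged from 1.35 to 23.7%, with as few as 38 observations in a library. The first start of Bcl6 had 0.129%. In the 5 comparisons, 17, 17, 19, 18 and 18 of the 19 tiles that hold these promoters were tested and 0 were called in each, with no difference above 1.62 points for 120 h against 24 h, 1.39 for 72 h against 24 h, 2.31 for 120 h against 72 h and 2.98 for 120 h against continuous estradiol.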

How the data were processed

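RRBS of 11 libraries was analysed from the deposited CpG lists. Per the submitters' processing notes the build is mm9. The aligner and caller are not given in the sources used here. Each deposited file gives, per CpG, methylated and all reads as a text pair (used here as read counts) and a score that the authors set to the methylated share times 1000 (not used in tests). Libraries held 8234933 to 46899896 observations, of which 3966 to 23921 (0.0446 to 0.0516%) lay in the 6 loci.

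CpGs were grouped in 500-bp tiles. A tile was tested if at least 3 CpGs had 10 reads in every library of the fit (5 for the slope with hours). Methylated and unmethylated reads were fitted with a quasi-binomial logistic model (deviance F test, two-sided, dispersion from the deviance, moderated by limma's squeezeVar and not below 1), and p-values were adjusted by Benjamini-Hochberg over all tiles. The single library in continuous estradiol was taken to vary like the 120 h libraries. Named tiles are, at each locus, the promoter tile, any tile called, the 2 largest differences of 120 h from 24 h, the largest of 72 h from 24 h, and the highest and lowest in continuous estradiol; partly methylated and isolated unmethylated tiles, and the largest differences with 1 read per CpG, were added after their values were seen. The relaxed placement of Cebpa was also chosen after seeing the data. Members and lists were chosen with earlier results of these data known. Alternatives were coverage minimums of 5 and 20 reads, 1 read with 30 observations per tile, all 11 libraries in one fit, no lower limit on dispersion, Pearson dispersion, limma on the logit with 0.5 added, 1000-bp tiles, a replicate block and each replicate left out. The models were also run on simulated data, with a single set variance and changes planted only in tiles of middle methylation. The outcome is not given here, and such a run does not show how the models perform at the spread of these libraries. The chi-square between replicates was 1.88 to 2.46 per partly methylated tile over 5 groups, with every observation counted as independent. CpGs on the same read may not be independent, so this value does not measure the spread between replicates alone. Replicates were kept apart in every fit and pooled by group only for description and for the half-widths of differences. Python 3.11.15, numpy 2.4.6, scipy 1.17.1, pandas 2.3.3, statsmodels 0.14.6, R 4.3.3 and limma 3.58.1 were used.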

Additional observations from a re-analysis of the deposited data

How the results depend on the processing

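No tile of the 6 loci was called under any of the 62 alternatives over the 5 comparisons, and the smallest adjusted p was 0.267. Under many of these alternatives few or no tiles were called over the genome either. A count of 0 among the few tiles of the loci therefore says little about change there. The counts over the genome moved more. The 56 tiles called for 120 h against 24 h became 0 with all 11 libraries in one fit, 0 with limma, 124 with the Pearson dispersion (chosen after seeing the data), 0 with a replicate block and 0 without any one of the 4 replicates. The 27 called for 72 h against 24 h became 1 at a minimum of 20 reads, 0 with all 11 libraries, 0 with limma, 94 with the Pearson dispersion, 0 with a replicate block and 0 without any one replicate. For 120 h against 72 h, 0 became 3 with 1000-bp tiles and 53 with the Pearson dispersion. The 10 called along the hours became 1 at a minimum of 10 reads, 0 with limma, 21 with 1000-bp tiles, 4 with the Pearson dispersion, 0 with a replicate block and 0 to 15 without one replicate (1 without 24 h replicate 1, 1 without either 72 h replicate and 0 without 24 h replicate 2). The cause was not tested. Differences between replicates 1 and 2 correlated at -0.011 to 0.023 between groups over 13832 partly methylated tiles, so no pairing by replicate number was seen. Counting error can hide such a pairing. The labels do not say whether replicate numbers mark batches or paired cultures, so this was not settled. For 120 h against continuous estradiol, with 1 library, neither a replicate block nor leaving out a replicate was run.

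Of 103 alternative values of the 17 differences at named tiles, 92 moved by less than the spread between replicates and 7 changed sign. Window means moved with the CpGs used. With at least 5 reads in all libraries they were 6.86% at Gfi1, 54.7% at Runx1, 44.9% at Irf8 and 12.5% at Cebpe, and with each CpG weighing the same 30.4% at Gfi1, 63.8% at Runx1 and 62.9% at Irf8. The intervals are widest at partly methylated tiles, above all against the single library in continuous estradiol.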
